A study of Drosophila melanogaster with 6 samples.

Results

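The genes described here are the cuticle protein genes of the fruit fly Drosophila melanogaster whose symbols carry the stems Cpr, Lcp or Ccp84, in RNA of adult progeny labelled intestine. They were taken by symbol alone, as every row starting with Cpr, Lcp, Ccp84 or TwdL followed by a digit or a capital letter, which gave 86 of 15010 genes. Of these, 66 were Cpr, 13 were Lcp and 7 were Ccp84A genes. No row matched the TwdL spelling, because the table spells the Tweedle family Twdl, and its 24 genes are therefore given for comparison only. The lone symbol Cpr, a cytochrome P450 reductase gene, was not a member.

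The 6 libraries of polyadenylated RNA fell into 2 groups of 3. Controls were progeny of MTD-GAL4/+ mothers, and the InR-DN group, titled reprogrammed by the submitters, were progeny of MTD-GAL4/InR-DN mothers. MTD-GAL4 drives expression in the female germline, and InR-DN is a dominant-negative form of the insulin receptor. All fathers were OregonR. Beyond adult, the age of the progeny, their sex and the number of animals per library are unstated in the sources used here. The offspring of such crosses can carry the mother's transgenes, so maternal and inherited effects cannot be told apart. Nothing in the labels ties replicates to separate flies or cultures. A p-value here therefore reflects the spread among these 6 libraries, and that spread may be technical.

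Insect cuticle is an extracellular matrix of chitin fibres and proteins, secreted by the epidermis and by the cells lining the trachea, foregut and hindgut. Most Cpr, Lcp and Ccp84A proteins carry the Rebers and Riddiford consensus, a chitin-binding domain. The midgut has a peritrophic matrix in place of cuticle. Many genes of the family are known to be transcribed in bursts around the making of a new cuticle in the embryo, the larva or the pupa, and the name Lcp stands for larval cuticle protein. Most members have no role stated below beyond membership of the family.

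Values are TPM, a transcript abundance that corrects for gene length and scales each library to a total of 1000000. Reads recovered for 10963 genes summed to between 25945907 and 34487728 per library. The content went beyond the tissue label. The 11 midgut markers summed to 17110 to 25439 TPM, but 8 photoreceptor markers also summed to 3681 to 5057 TPM and 2 oenocyte markers to 6764 to 10625 TPM. The 6 fat body markers summed to 12057 to 16504 TPM, most of it from Yp1, Yp2 and Yp3. The 11 oocyte and eggshell markers summed to 1204 to 2361 TPM. Of the 59 markers in the table, 2 were at 0 in at least 1 library, Lsp2 and Fbp1 of the fat body list. In bulk RNA, fewer cells of a type and less RNA per cell cannot be told apart.

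For these genes InR-DN replicate 2 stood apart. Its median deviation from the group mean over tested members was -1.11 on the log2(TPM + 1) scale, against -0.06 over all tested genes. InR-DN replicate 1 deviated by 0.66 and InR-DN replicate 3 by 0.40. Among controls, replicate 2 deviated by 0.25, and replicates 1 and 3 by -0.11 and -0.10. The lowest of the 6 libraries was InR-DN replicate 2 for 21 of 47 tested members (44.7%), near the 40.01% of all tested genes. This library also differed beyond the cuticle genes. Over genes with enough recovered reads in a pair, the chi-square per degree of freedom was 97.1 against InR-DN replicate 1 (9008 genes). Against InR-DN replicate 3 it was 51.1 (9013 genes). It was 31.4 between InR-DN replicates 1 and 3, and 22.8 to 36.6 between controls. Within its own group it was the lowest library for 32 of 47 (68.1%), against 53.4% of all tested genes. Control replicate 2 was the highest control for 28 of 47 tested members (59.6%), against 28.8% of all tested genes. Log2 fold changes of the members below are given with and without InR-DN replicate 2. That library was singled out from these same values, and leaving out the lowest library of a group raises the group mean. The shift is therefore no test of a group difference.

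Summed over all 86 genes, cuticle protein transcripts lay at 654, 778 and 676 TPM in control replicates 1 to 3 and at 929, 614 and 771 TPM in InR-DN replicates 1 to 3. The groups overlapped. The 4 most abundant members made up 48.0% to 53.7% of that sum in 5 libraries and 74.8% in InR-DN replicate 2. The other 82 genes together lay at 314, 385 and 313 TPM in controls and at 483, 155 and 359 TPM in the InR-DN group, so the lowest and the highest library were both in the InR-DN group.

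Of the 12 most abundant members, 6 had a range between libraries of 2.053-fold or less in TPM + 1, with Cpr67B at 1.388-fold the narrowest of them. These were the steadiest abundant members, but 5 of the 6 exceeded the 1.5-fold range under which 77.9% of all tested genes stayed. Cpr67B, the most abundant, lay at 170, 182 and 151 TPM in control replicates 1 to 3 and at 131, 181 and 138 TPM in InR-DN replicates 1 to 3. Cpr49Ab lay at 103, 84.5 and 139 TPM in controls and at 108, 175 and 131 TPM in the InR-DN group. Cpr65Au lay at 66.6, 65.7 and 72.0 TPM in controls and at 69.5, 97.6 and 54.2 TPM in the InR-DN group. In none of the 3 genes was InR-DN replicate 2 low, and for Cpr49Ab and Cpr65Au it was the highest library. Cpr49Ae lay at 45.2, 43.3 and 33.3 TPM in controls and at 29.96, 46.1 and 32.1 TPM in the InR-DN group. Cpr72Ec lay at 21.9, 31.2 and 18.1 TPM in controls and at 20.7, 29.8 and 20.1 TPM in the InR-DN group. Cpr66D lay at 14.0, 19.6 and 9.22 TPM in controls and at 11.4, 9.22 and 15.9 TPM in the InR-DN group. The groups overlapped for all 6 genes. Their log2 fold changes were -0.17 (Cpr67B), 0.34 (Cpr49Ab), 0.07 (Cpr65Au), -0.18 (Cpr49Ae), 0.00 (Cpr72Ec) and -0.19 (Cpr66D), and none passed the test described below. Without InR-DN replicate 2 they were -0.31, 0.15, -0.15, -0.37, -0.18 and -0.02 in the same order. The signs of Cpr65Au, Cpr72Ec and Cpr66D turned when single libraries were left out.

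**Figure D1:**
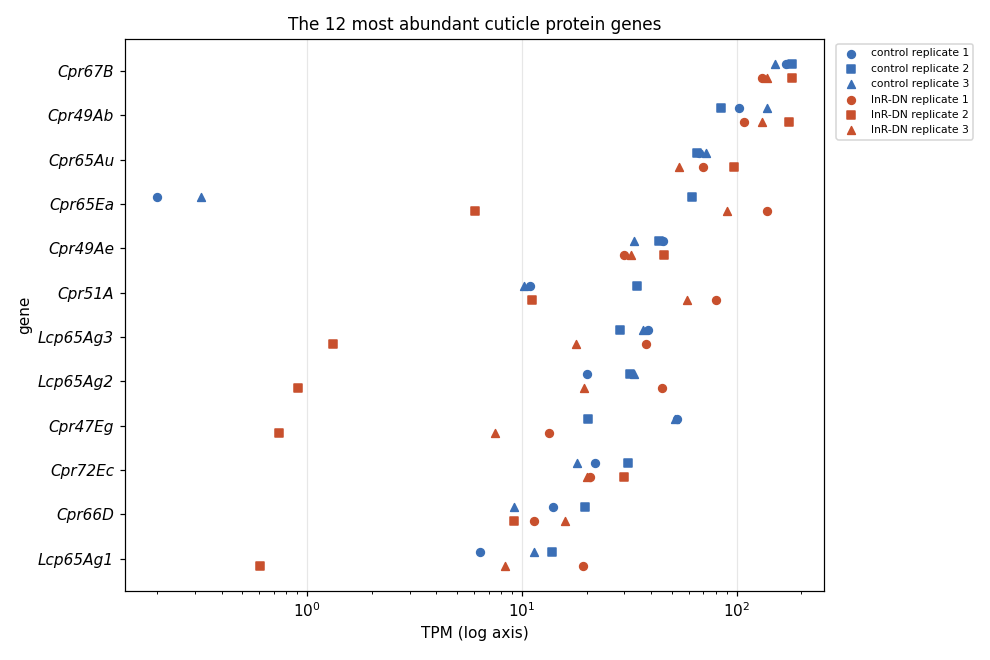
TPM (log axis) of the 12 cuticle protein genes with the highest mean over all libraries, 1 point per library, controls in blue above and the InR-DN group in red below each gene's line. Cpr67B lies between 131 and 182 TPM in all libraries, whereas Cpr65Ea spans 0.200 to 139 TPM and the Lcp65Ag genes lie at 0.605 to 1.32 TPM in InR-DN replicate 2.

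The other abundant members varied more. Among the 47 members that reached 1 TPM in 3 or more libraries, 26 (55.3%) had a range of at least 4-fold in TPM + 1 over the 6 libraries, against 2.45% of all 10816 genes passing that filter. Members passing the filter are not the whole family, and this count describes them only. The members just inside that 4-fold limit were Cpr31A (4.26-fold) and Cpr49Ag (4.34-fold), and the one just outside it was Cpr92F (3.82-fold). At the other end, 13 of the 47 (27.7%) had a range under 2-fold, against 92.9% of all tested genes. The narrowest were Cpr62Bb (1.215-fold) and Cpr57A (1.32-fold).

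**Figure D2:**
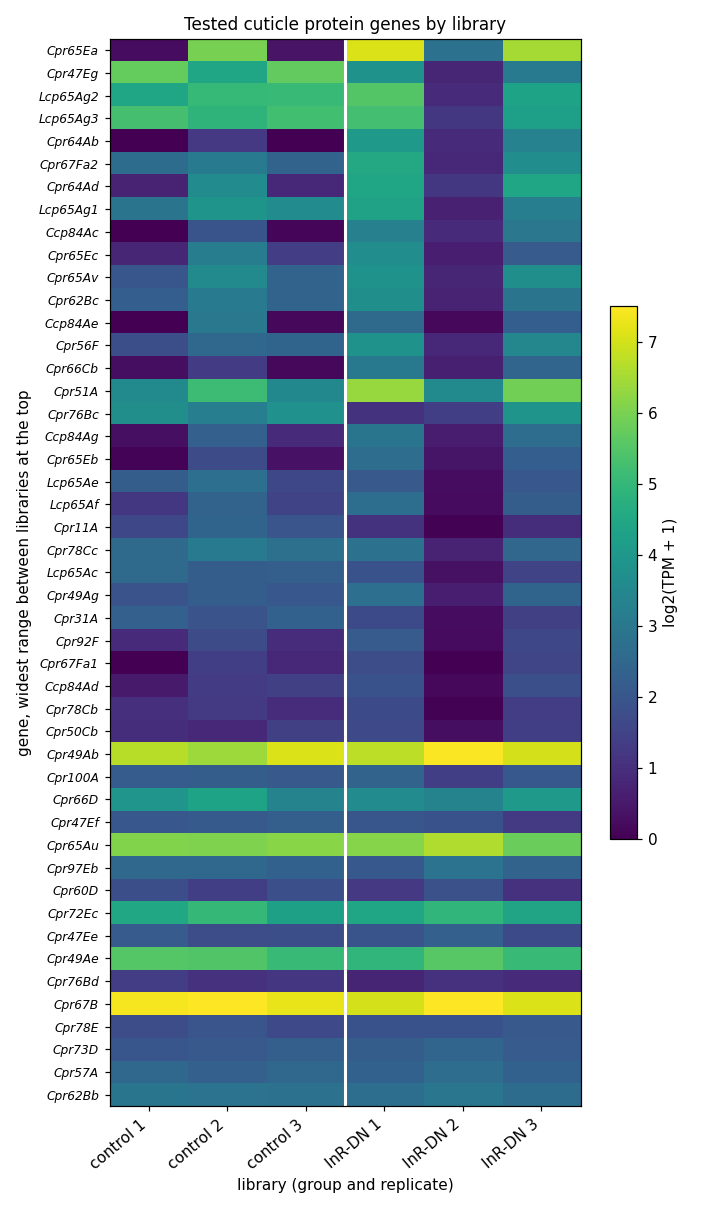
Level as log2(TPM + 1), by colour, of the 47 tested cuticle protein genes (rows, widest range between libraries at the top) in the 6 libraries (columns, controls left of the white line). Most rows in the upper part are dark in InR-DN replicate 2, while Cpr49Ab, Cpr65Au and Cpr67B stay bright in every library.

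The widest range was that of Cpr65Ea, a member of the 65E cluster of 3 genes on arm 3L (3L:7086003-7093841 in the BDGP6.54 annotation). Cpr65Ea lay at 0.200, 61.8 and 0.319 TPM in control replicates 1 to 3 and at 139, 6.04 and 89.8 TPM in InR-DN replicates 1 to 3. The recovered reads behind these values were 2, 779 and 4 in controls and 1327, 73 and 856 in the InR-DN group. One control and both InR-DN replicates 1 and 3 were thus high, and the groups overlapped. The neighbouring Cpr65Eb lay at 0.0537, 2.35 and 0.301 TPM in controls and at 5.45, 0.356 and 3.78 TPM in the InR-DN group. Cpr65Ec lay at 0.762, 7.95 and 1.60 TPM in controls and at 11.9, 0.552 and 3.50 TPM in the InR-DN group. All 3 genes had their highest control value in control replicate 2 and their lowest InR-DN value in InR-DN replicate 2.

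The same libraries were high in the 64A cluster and the 84A cluster. In the 64A cluster (3L:4207838-4216414), Cpr64Ad lay at 0.673, 11.3 and 0.808 TPM in controls and at 20.5, 1.35 and 20.5 TPM in the InR-DN group. Cpr64Ab had 0, 18 and 0 reads in controls and 152, 11 and 89 reads in the InR-DN group, which corresponds to 1.40 TPM in control replicate 2 and to 15.5, 0.890 and 9.13 TPM in InR-DN replicates 1 to 3. The other genes of this cluster, Cpr64Aa and Cpr64Ac, had at most 3 reads in any library. The 84A cluster (3R:6686728-6704903) holds the 7 Ccp84A genes. Its summed level was 1.08, 16.7 and 3.43 TPM in controls and 24.5, 1.62 and 19.3 TPM in the InR-DN group. Ccp84Ac lay at 0, 2.83 and 0.0814 TPM in controls and at 8.62, 0.885 and 6.89 TPM in the InR-DN group. Ccp84Ae lay at 0, 6.99 and 0.114 TPM in controls and at 5.01, 0.118 and 3.76 TPM in the InR-DN group, with its highest value in a control library, unlike Ccp84Ac. Outside these clusters, Cpr51A lay at 10.9, 34.5 and 10.3 TPM in controls and at 80.2, 11.1 and 58.7 TPM in the InR-DN group. Cpr66Cb lay at 0.215, 1.499 and 0.129 TPM in controls and at 7.21, 0.580 and 4.47 TPM in the InR-DN group.

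The 65A cluster holds 12 members within 31204 bases of arm 3L (3L:6130386-6161589), and their patterns differed. Lcp65Ag3 lay at 38.7, 28.7 and 36.8 TPM in control replicates 1 to 3 and at 37.7, 1.32 and 17.9 TPM in InR-DN replicates 1 to 3. Lcp65Ag2 lay at 20.1, 32.0 and 33.4 TPM in controls and at 44.8, 0.905 and 19.4 TPM in the InR-DN group. Lcp65Ag1 lay at 6.36, 13.8 and 11.4 TPM in controls and at 19.2, 0.605 and 8.33 TPM in the InR-DN group. InR-DN replicate 2 was the lowest library for all 3 genes, and InR-DN replicate 3 also lay below every control for Lcp65Ag3 and Lcp65Ag2. Lcp65Ag1, Lcp65Ag2 and Lcp65Ag3 are close copies of one another, so reads may be split between them in a way the table does not show. Cpr65Av in the same cluster lay at 3.02, 11.1 and 4.23 TPM in controls and at 13.5, 0.765 and 12.3 TPM in the InR-DN group. Lcp65Af lay at 1.35, 4.21 and 1.91 TPM in controls and at 5.54, 0.172 and 3.60 TPM in the InR-DN group. For both, as for Cpr65Ea, the highest control was replicate 2 and InR-DN replicates 1 and 3 lay above control replicates 1 and 3. Low values in InR-DN replicate 2 with all controls well above it also occurred outside the cluster, as for Cpr78Cc, at 5.06, 7.55 and 5.78 TPM in controls and at 5.94, 0.685 and 4.56 TPM in the InR-DN group. Of the 8 tested genes of the 65A cluster, 7 had their lowest value in InR-DN replicate 2, against 40.01% of all tested genes. The exception was Cpr65Au, which lies among the Lcp65Ag genes and was highest there. All 13 Lcp genes together summed to 75.8, 89.15 and 90.8 TPM in controls and to 114.9, 3.82 and 55.1 TPM in the InR-DN group.

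**Figure D3:**
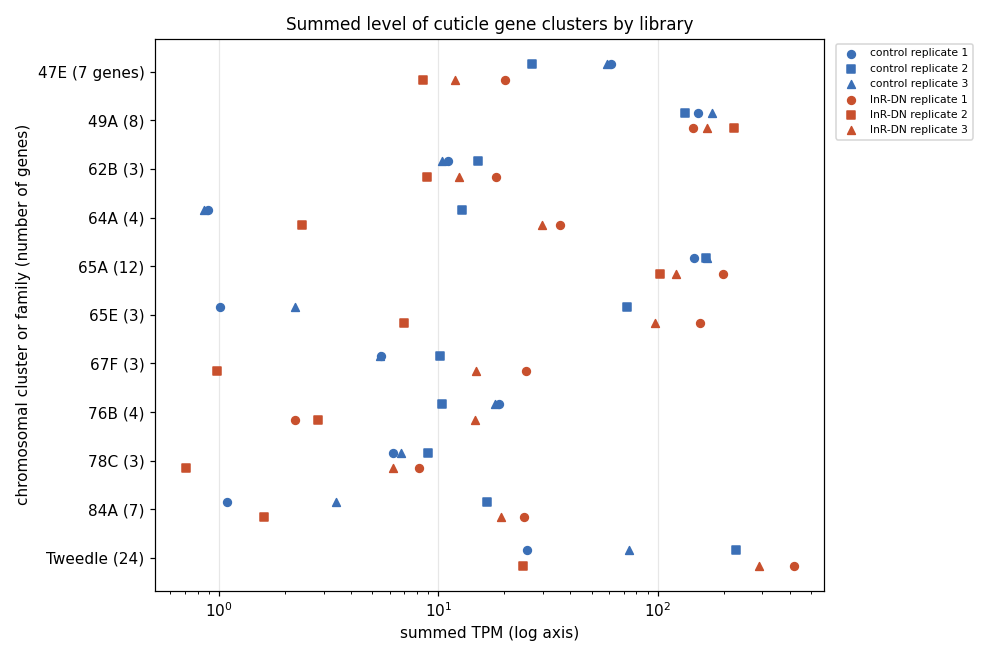
Summed TPM (log axis) of the chromosomal clusters with at least 2 tested cuticle protein genes, and of the 24 Tweedle genes, 1 point per library (controls in blue above, the InR-DN group in red below each line). Clusters 64A, 65E and 84A place control replicates 1 and 3 and InR-DN replicate 2 at low values, 49A varies from 133 to 221 TPM, and 47E has all InR-DN libraries below all controls.

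Positions and patterns went together only in part. Of the 86 members, 58 lay in 11 clusters of at least 3 members spaced by no more than 20 kb, and by arm 39 lay on 3L, 26 on 2R, 12 on 3R, 5 on 2L and 4 on X. All 3 genes of 65E and 7 of the 8 tested genes of 65A had a range of at least 4-fold. In the 47E and 49A clusters 1 of 3 tested genes each did. The exons of 7 members overlap those of another annotated gene, among them Lcp65Ag3 and Cpr65Au, which share an antisense RNA gene. The sources used here do not say whether reads were counted by strand, and without strand those reads cannot be told apart.

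Levels of tissue markers were set beside these patterns. The hindgut and foregut markers byn, otp, drm and bowl together lay at 42.3, 34.4 and 30.1 TPM in controls and at 30.6, 31.8 and 34.3 TPM in the InR-DN group, with the highest sum in control replicate 1. The tracheal markers together lay at 87.5, 93.9 and 65.5 TPM in controls and at 120, 59.1 and 118 TPM in the InR-DN group, with InR-DN replicate 2 lowest. Of those 6 markers, 3 are themselves genes of the chitin matrix (Gasp, verm and serp), and each of these was lowest in InR-DN replicate 2. The tracheal receptor gene btl and the transcription factor gene trh lay at 4.85 to 5.61 and 2.59 to 3.89 TPM and were not lowest in InR-DN replicate 2. The part of cell content in the cuticle values was not tested.

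The comparison of the InR-DN group with controls asked how maternal genotype relates to expression in the progeny. Of the 47 tested cuticle protein genes none passed the adjusted test, and the other 39 were not tested. Of 47 tested members, 23 had a higher and 24 a lower mean of log2(TPM + 1) in the InR-DN group, with a median log2 fold change of 0.00 (-0.00048), against 0.01 over all tested genes. The test was limma with Benjamini-Hochberg adjustment over 10816 genes. At an adjusted p of 0.05 the count was 0 of 47 members (0.0% of all tested genes), and the smallest adjusted p of a member was 0.991. At an unadjusted p under 0.05 there were 5 members, 1 higher and 4 lower, which is 10.6% of those tested against 3.15% of all genes (1.13% higher and 2.02% lower). With limma voom on whole reads, 0 of 53 tested members passed and 8 had an unadjusted p under 0.05, against 3.15% of the 8730 genes tested there. For 1 gene, the smallest p that exact permutation of 3 against 3 libraries allows is 0.1.

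The 4 members with the smallest p among those lower in the InR-DN group had non-overlapping groups. Cpr47Eg lay at 52.9, 20.3 and 51.4 TPM in control replicates 1 to 3 and at 13.4, 0.743 and 7.53 TPM in InR-DN replicates 1 to 3. Its log2 fold change was -2.71 with a standard error of 0.79 (limma, adjusted p = 1.00). Cpr11A lay at 2.07, 4.33 and 2.93 TPM in controls and at 1.15, 0.0337 and 0.982 TPM in the InR-DN group, a log2 fold change of -1.29 ± 0.33 (SE, limma, adjusted p = 0.991). In InR-DN replicate 2 that level rested on 1 read. Lcp65Ac lay at 5.01, 3.65 and 3.84 TPM in controls and at 2.68, 0.265 and 1.91 TPM in the InR-DN group, a log2 fold change of -1.11 ± 0.385 (SE, limma, adjusted p = 1.00). Cpr31A lay at 3.90, 2.82 and 4.04 TPM in controls and at 2.20, 0.182 and 1.71 TPM in the InR-DN group, a log2 fold change of -1.07 ± 0.37 (SE, limma, adjusted p = 1.00). All of these 4 genes had every InR-DN library below every control, and the lowest value was in InR-DN replicate 2. Without that library their log2 fold changes were -1.82 (Cpr47Eg), -0.96 (Cpr11A), -0.65 (Lcp65Ac) and -0.63 (Cpr31A).

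In total 6 of the 47 tested members (12.8%) had every InR-DN library below every control, against 3.78% of all tested genes, and 0 members had every InR-DN library above, against 2.58%. Cpr47Ef (-0.41) and Cpr76Bd (-0.29) were the other two, with -0.49 and -0.37 without InR-DN replicate 2. Among the 39 members that did not pass the filter, 6 also had every InR-DN library below every control, against 4.7% of the 4194 genes not passing it, and 0 had the reverse, against 3.55%. Of those 6 genes, 2 had at most 10 reads in every library. In the 76B cluster, Cpr76Bb had 52, 10 and 48 reads in controls and 4, 2 and 1 reads in the InR-DN group. Cpr76Ba had 22, 8 and 20 reads in controls and 1, 0 and 1 reads in the InR-DN group. Their neighbour Cpr76Bc lay at 12.1, 8.30 and 13.1 TPM in controls and at 1.17, 1.60 and 13.7 TPM in the InR-DN group, where InR-DN replicate 3 was as high as the controls.

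Members with higher means in the InR-DN group overlapped the controls in every case. The 4 with the smallest p were Cpr64Ab, Cpr66Cb, Ccp84Ac and Cpr65Ea, whose levels are given above. Cpr64Ab had a log2 fold change of 2.35 ± 0.81 (SE, limma, adjusted p = 1.00). Cpr66Cb had 1.46 ± 0.63, Ccp84Ac had 1.70 ± 0.76 and Cpr65Ea had 3.27 ± 1.78, each also with an adjusted p of 1.00. Without InR-DN replicate 2 these values were 3.27 for Cpr64Ab, 2.15 for Cpr66Cb, 2.44 for Ccp84Ac and 4.60 for Cpr65Ea. Cpr64Ab, Cpr66Cb and Ccp84Ac reached 1 TPM only in control replicate 2 and InR-DN replicates 1 and 3. They were therefore not tested when any of these libraries was left out. The same holds for Ccp84Ae and Cpr67Fa1 below. The 95% interval of Cpr65Ea ran from -0.98 to 7.52, which holds both no difference and a large one. Of the genes with the widest ranges inside a group, Cpr64Ad had 1.62 ± 1.10, Ccp84Ae 0.61 ± 0.96, Cpr65Ec 0.38 ± 0.88 and Cpr67Fa2 0.30 ± 0.88. Without InR-DN replicate 2 they had 2.69, 1.37, 1.14 and 1.38 in that order. Other libraries mattered as well. Leaving out 1 library in turn gave 2.29 to 5.15 for Cpr65Ea, with 5.15 without control replicate 2, and 1.09 to 2.69 for Cpr64Ad. Cpr67Fa2 lay at 5.34, 7.66 and 4.20 TPM in controls and at 22.2, 0.791 and 11.7 TPM in the InR-DN group. It may share reads with its close copy Cpr67Fa1, which had 0.37 ± 0.55, and 0.93 without InR-DN replicate 2. The 3 Lcp65Ag genes had -1.57 ± 0.95 (Lcp65Ag3), -1.25 ± 1.08 (Lcp65Ag2) and -0.72 ± 0.87 (Lcp65Ag1), against -0.39, 0.083 and 0.31 without InR-DN replicate 2. Cpr51A had 1.21 ± 0.78, and 2.05 without that library.

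Among the 6 single libraries left out in turn, InR-DN replicate 2 moved the count of members with a small p the most. The count of members with an unadjusted p under 0.05 went from 5 to 21, of which 14 were higher and 7 lower, while the share over all tested genes went from 3.15% to 8.69%. No member passed the adjusted p (0.0% of all genes did), and the smallest adjusted p of a member in limma was 0.167, for Cpr64Ab. Over the alternatives in which Cpr64Ab was tested, its adjusted p ranged from 0.167 to 1.00. The median log2 fold change of tested members was then 0.15, against 0.04 over all genes. Without control replicate 1 the count was 2 of 47 tested members (2.37% of all genes) and without control replicate 3 it was 3 of 46 (3.87%). Leaving out control replicate 2 gave 6 of 39 (2.42%), leaving out InR-DN replicate 1 gave 6 of 38 (3.5%), and omission of InR-DN replicate 3 gave 5 of 38 (3.31%).

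**Figure D4:**
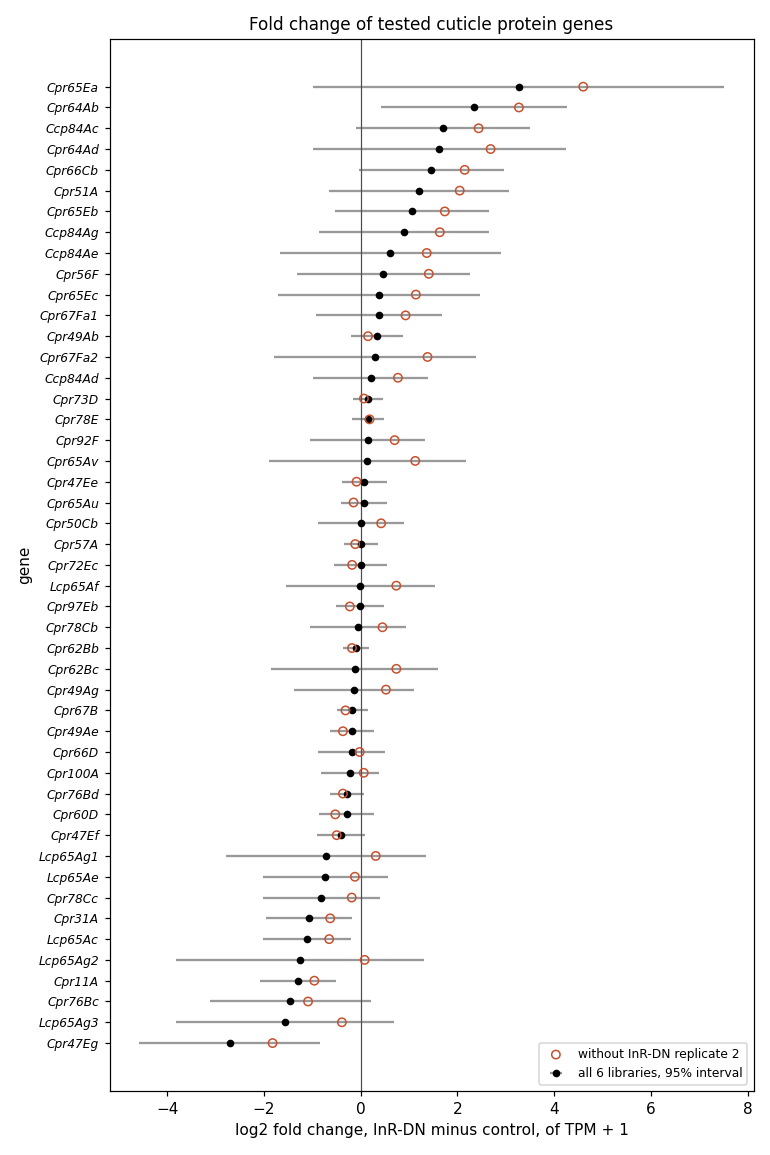
Log2 fold change of TPM + 1 (InR-DN minus control) of the 47 tested cuticle protein genes, ordered by value, as black points with 95% intervals from the limma fit of 6 libraries, and as red circles without InR-DN replicate 2. The interval includes 0 for 42 of the 47 genes. The circle lies to the right of the point for 34 of the 47, among them Cpr65Ea (4.60 against 3.27) and the Lcp65Ag genes. InR-DN replicate 2 was the lowest InR-DN library for 32 of the 47. Leaving out the lowest library of a group always raises the group mean.

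The 39 members below the filter were scarce throughout. Of these, 27 had at most 10 reads in every library, 7 reached 1 TPM in at least 1 library, and the highest value was 3.63 TPM, for Cpr76Bb. Over all 86 members, 32 stayed below 1 TPM in every library, 18 were at 1 TPM or more in every library, and 0 were at 0 in every library. The 4 genes Lcp1 to Lcp4, abundant proteins of the larval cuticle, together lay at 0.182 to 0.755 TPM. By stem, the tested members were 37 of 66 Cpr, 6 of 13 Lcp and 4 of 7 Ccp84A genes.

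The Tweedle genes, another family of chitin-binding cuticle proteins that shapes the body, were set beside them. Their summed level was 25.3, 227 and 74.1 TPM in controls and 416, 24.3 and 290 TPM in the InR-DN group. Control replicate 2 and InR-DN replicates 1 and 3 were high, as for Cpr65Ea. Of 16 tested Tweedle genes, 14 had higher and 2 lower means in the InR-DN group, against 54.6% higher over all tested genes. The groups did not overlap for 2 of the 16, against 6.36% of all tested genes. These were the 2 lower genes, TwdlP (-1.36) and TwdlN (-1.98), while all 14 higher ones overlapped the controls. Their median log2 fold change was 1.07, and 0 passed the adjusted p. TwdlD lay at 0.223, 25.3 and 0.0894 TPM in controls and at 90.9, 4.40 and 58.9 TPM in the InR-DN group. TwdlM lay at 1.31, 67.8 and 14.1 TPM in controls and at 81.0, 3.08 and 49.9 TPM in the InR-DN group. The genes with the smallest p were TwdlP (-1.36) and TwdlBeta (2.07), both with an adjusted p of 1.00 in limma. Leaving out InR-DN replicate 2 gave a Tweedle median of 2.08, and leaving out control replicate 2 gave 1.97. Omission of InR-DN replicate 1 gave 0.34, and of InR-DN replicate 3, 0.62. The fits behind 1.97, 0.34 and 0.62 left TwdlE, TwdlV, TwdlC, TwdlX and TwdlY untested. Those medians are therefore over fewer genes than 1.07 and 2.08 and cannot be compared with them directly.

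Other genes of cuticle making were taken by list. Of 8 further cuticular protein genes 1 was tested, the pupal cuticle protein gene Pcp. Pcp lay at 5.25, 4.42 and 2.58 TPM in controls and at 1.41, 1.18 and 1.66 TPM in the InR-DN group, without overlap, a log2 fold change of -1.04 ± 0.22 (SE, limma, adjusted p = 0.757, with 0.476 to 1.00 over the alternatives). Tb, a Tweedle gene named for the tubby mutant, lay at 0, 0.707 and 0.0418 TPM in controls and at 8.97, 0.433 and 6.537 TPM in the InR-DN group, and did not pass the filter.

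Of 30 tested genes of chitin synthesis, assembly and turnover, 15 had higher and 15 lower means, 0 passed the adjusted p, and the median was 0.00. A range of at least 4-fold was seen in 3 of the 30, against 2.45% of all tested genes. The most abundant were Idgf4 (293 to 341 TPM) and Idgf2 (132 to 157 TPM), chitinase-like secreted proteins, and the smallest p belonged to dsx-c73A (-0.85) and the chitinase gene Cht5 (-0.77). For Cht5 the values were 7.21, 3.01 and 6.30 TPM in controls and 2.26, 3.09 and 2.64 TPM in the InR-DN group, and the groups overlapped.

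Genes of cuticle tanning and pigmentation had 8 higher and 5 lower means among 13 tested, with a median of 0.02 and 0 past the adjusted p. The most abundant were Dat, the dopamine N-acetyltransferase gene (55.8 to 71.5 TPM), and t, which encodes the hydrolase Tan (27.3 to 41.2 TPM). The smallest p were those of Pu, the GTP cyclohydrolase gene (-0.16), and yellow-f2 (0.20). No gene of this list had a 4-fold range. The regulator list, transcription factors that act in epidermal development or the ecdysone response, had 3 higher and 8 lower means among 11, with a median of -0.03, 0 past the adjusted p and no 4-fold range. The most abundant were crol (56.8 to 64.02 TPM) and ftz-f1 (42.7 to 66.0 TPM), a nuclear receptor gene of the ecdysone cascade, and the smallest p were those of Hr46 (-0.36) and Blimp-1 (-0.10).

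Genes of zona pellucida domain proteins, which build the apical matrix of epidermal cells, had lower means in 10 of 10 tested, against 45.4% of all tested genes. Their median log2 fold change was -0.56, and 0 passed the adjusted p. The median was -0.28 without InR-DN replicate 2, -1.02 without InR-DN replicate 3, -0.14 with a filter of 5 TPM and -1.40 with voom. Apart from the fit without InR-DN replicate 2, these settings did not test all of the 10 genes. Their medians are therefore not over the same genes. A range of at least 4-fold was seen in 3 of the 10. The smallest p were those of nyo (-0.82) and m (-0.75). The gene nyo lay at 1.33, 1.26 and 1.61 TPM in controls and at 0.163, 0.0234 and 1.10 TPM in the InR-DN group. Its groups did not overlap, and InR-DN replicate 3 was the one closest to the controls. The gene m lay at 1.20, 1.46 and 2.55 TPM in controls and at 0.282, 0.223 and 1.58 TPM in the InR-DN group. For m, InR-DN replicate 3 lay within the control range. The most abundant, pio and qsm, had -0.08 and -0.14 and lay at 20.3 to 25.1 and 18.2 to 23.5 TPM.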

How the data were processed

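The authors deposited the values as TPM, per the file headers, for 15010 genes in 6 libraries. Per the submitters' processing notes TopHat and edgeR were used, with no version or role named; build, annotation and read counter: not given in the sources used here. Symbols were matched to BDGP6.54. TPM times annotated exon length gave whole reads in every library (relative tolerance 1e-05) for 10963 of 11527 genes and for 84 of 86 members. Differences were tested with limma 3.58.1 (R 4.3.3, trended variance) on log2(TPM + 1), which understates changes of low genes. Genes needed 1 TPM or more in 3 libraries or more, and p-values were adjusted over all 10816. The fit was tested on simulated data. Members, lists and tests were chosen with earlier results of these data known. By rule, the named members are the 12 most abundant, the 4 of smallest p per direction and the 4 of widest range per group. The named list genes are the 2 of smallest p and the 2 most abundant. Others, named for a cluster, a count or the end of a range, were picked once their values were known. Settings varied were the pseudocount (0.1, 5), the filter (none, 5 TPM), rescaling by median of ratios, a replicate block and omission of each library. A voom fit on whole reads (10 or more in 3 libraries or more) was added after the data had been seen.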

Additional observations from a re-analysis of the deposited data

How the results depend on the processing

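No cuticle protein gene passed the adjusted p in limma under any of the 13 alternatives, and neither did a gene of the other 6 lists. Over all genes the count was 0, with 1 at a pseudocount of 0.1 and 0 to 1 when single libraries were left out. Members with an unadjusted p under 0.05 numbered 5 of 47 (3.15% of all genes), against 12 of 86 with no filter (3.78%), 1 of 19 with the filter of 5 TPM (2.43%), 8 of 53 with voom (3.15%) and 2 to 21 when leaving out 1 library (2.37% to 8.69%). Members with a higher mean numbered 23 of 47, against 36 of 86 with no filter and 7 of 19 with the filter of 5 TPM. Leaving out 1 library gave 11 of 38 to 27 of 47. The filters change how many members are tested, and so does leaving out a library (38 to 47 tested). The cause of the other shifts was not tested. The sign turned for 12 of 43 named genes. It did so for Cpr72Ec with rescaling (0.00014) and voom (0.0098), for Cpr67Fa2 with voom (-0.012) and for t with voom (0.0059). Leaving out 1 library gave ranges of -0.15 to 0.27 for Cpr65Au, -2.21 to 0.083 for Lcp65Ag2, -1.51 to 0.31 for Lcp65Ag1, -0.18 to 0.21 for Cpr72Ec, -0.45 to 0.058 for Cpr66D, -0.38 to 1.14 for Cpr65Ec and -0.46 to 1.38 for Cpr67Fa2. Outside the members the ranges were -0.057 to 0.049 for Idgf2, -0.034 to 0.14 for Dat, -0.16 to 0.12 for t, -0.18 to 0.13 for ftz-f1 and -0.33 to 2.27 for TwdlM. Same-numbered libraries of the 2 groups did not deviate together (correlations of -0.41, -0.18 and -0.13 over genes), and 0 of 6 libraries matched its own number best. With 3 libraries per group, each set against its group mean, these values cannot decide whether same-numbered libraries were handled together. With the replicate block 0 genes and 0 members passed, and 6 members had an unadjusted p under 0.05 (3.35% of all genes). Depth limits the low members: 27 had at most 10 reads in every library. Intervals cover the spread between libraries.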
